A study of Homo sapiens with 10 samples.

Results

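The genes of the distal long arm of chromosome 8 were compared between a cyclophosphamide-resistant subline and the sensitive cell line it was compared with, both from chronic myeloid leukaemia (CML), in which the fusion kinase BCR-ABL drives the growth of myeloid cells. Members were all probe sets with a single gene symbol in the platform annotation whose gene lies on chromosome 8 with a start of 100000000 or more on GRCh38, without ANGPT1, MYC and SQLE. The rule was met by 114 of 12558 probe sets and by 84 of 8226 genes. The resistant group comprised 5 arrays and the sensitive group 5 arrays, each with biotin-labelled RNA of cells grown in culture, on Affymetrix arrays that give 1 signal per probe set on a linear scale. The labels give neither the name of the line nor how resistance was raised, and do not say whether replicates are separate cultures. The p-values therefore cover only the spread among these arrays, and this spread may be technical.

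Cyclophosphamide is an alkylating drug that crosslinks DNA after activation. A stretch of a chromosome holds neighbours of unrelated function, and where the number of copies of a stretch changes, the transcripts of many of its genes change with it. An extra chromosome 8 is among the well-known additional chromosome changes of CML. Copy number was not measured in these samples.

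The stretch was chosen because genes on the long arm of chromosome 8 had been found lower in resistant cells in this same contrast. All counts, medians and differences between the groups given here are therefore a description of the stretch and no independent evidence of its direction. Adjusted p-values come from a fit with limma across all 12558 probe sets, with Benjamini-Hochberg adjustment over all of them, and a gene was called at an adjusted p under 0.05. Differences are resistant minus sensitive on the log2(signal + 114.8) scale, which understates the change of dim probe sets. Each gene is represented by its brightest probe set. The limit of background on an array was the 95th percentile of 32 control probe sets with no human target, between 319.7 and 739.8. A gene is named bright where it exceeded the limit on at least 3 arrays of either group.

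The arrays of the groups were of like quality. Between 51.0% and 61.3% of probe sets exceeded the limit on resistant arrays, against 52.7% to 59.1% on sensitive arrays. All 5 pan-leukocyte markers listed (LCP1, LAPTM5, CD53, CORO1A and PTPRC) were above the limit on every array, whereas 0 of 3 measured fibroblast markers were bright in either group. KRT8 of the 5 epithelial markers was above the limit on every array, CDH1 on 2 resistant and 3 sensitive arrays, and the others on none. Among 4 T cell markers, only CD3E exceeded it on at least 3 arrays of a group, in both groups. Among 3 measured B cell markers, only CD79A did so, in sensitive arrays. Of 9 granulocyte and eosinophil markers, 0 were above the limit on at least 3 resistant arrays and 8 on at least 3 sensitive arrays, with summed signals of 1519 to 2710.0 in resistant and 183547 to 470587 in sensitive arrays. The summed signal of 5 measured erythroid markers was 22053 to 32820.1 in resistant and 6305 to 14014 in sensitive arrays, that of 4 megakaryocytic markers 11632 to 19815 in resistant and 1084 to 2499 in sensitive arrays, and that of 4 monocytic markers 6079 to 11589 in resistant and 2328 to 4792 in sensitive arrays. All measured erythroid markers were above the limit on every array. KLF1, TAL1 and GATA1 had means of 8548, 10284.5 and 3882 in resistant and 1222.5, 2600 and 1872 in sensitive arrays. ALAS2 and EPOR differed little, with means of 972 and 3272 in resistant and 811 and 3103 in sensitive arrays. The megakaryocytic sum rested on ITGA2B, with means of 13396 in resistant and 1169 in sensitive arrays, since PF4, GP1BA and GP9 were above the limit on no array. In the monocytic list FCGR2A was above the limit on every array, LYZ on 5 resistant and 0 sensitive arrays, CSF1R on 1 resistant and 0 sensitive arrays, and CD14 on none. No measured marker had a mean signal of 0 in either group. The lines thus differed in lineage markers as well, and the part of this in the differences below was not tested.

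Of the 84 genes, 28 were called lower in resistant cells (33.3%) and 3 higher, whereas 3.46% of all 8226 genes were called lower and 4.94% higher. The genes called lower cover many functions, among them the calcium sensor gene NCALD, the stress-induced gene NDRG1, the triglyceride synthesis gene DGAT1, the Wnt receptor gene FZD6, the respiratory chain gene CYC1 and the DNA helicase gene RECQL4. The 3 genes called higher were ZHX2, a transcriptional repressor gene, EXT1, which encodes a polymerase of heparan sulphate, and PTK2, which encodes focal adhesion kinase. The median log2 difference of the 84 genes was -0.46, against 0.03 over all genes. The groups did not overlap, with every resistant array below every sensitive array, in 28 members, against 4.19% of all genes. With every resistant array above every sensitive array there were 2 members, ZHX2 and PTK2, against 5.69% of all genes. In 27 of the genes called lower, the resistant mean was 0.168 to 0.603 times the sensitive mean, with a median of 0.404. The other, SNTB1, was above the limit on 0 resistant arrays and was lower by at least 2.05-fold. Among the 27, GPT and PLEC were above the limit on only 1 and 2 resistant arrays, so that most of their resistant signals lay within background. A log2 difference of -1 or beyond was measured in 18 of the 28.

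Of the 84 members, 56 were bright and 28 were not. The bright members include all 31 called genes, and 41 members were above the limit on all 10 arrays. SNTB1, GPT, PLEC and ODF1 were bright through the sensitive arrays alone and EXT1 through the resistant arrays alone, so that these 5 passed only through the group in which they were higher. In the bright members the median difference was -0.82, with quartiles of -1.27 and -0.35, against 0.03 in all 5296 bright genes. A difference below 0 was measured in 51 of the 56 and above 0 in 5, namely ZHX2, EXT1, PTK2, PTP4A3 and ENPP2, the last of which was below 0 with arrays scaled to a common median or quantile normalized. Over all 5296 bright genes, 2472 had a difference below 0. Of the 25 bright members that were not called, 23 had a difference below 0, and 12 of these an unadjusted p under 0.05. Unadjusted p-values were not counted over all bright genes. In the 28 dim members the median was -0.02.

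**Figure D1:**
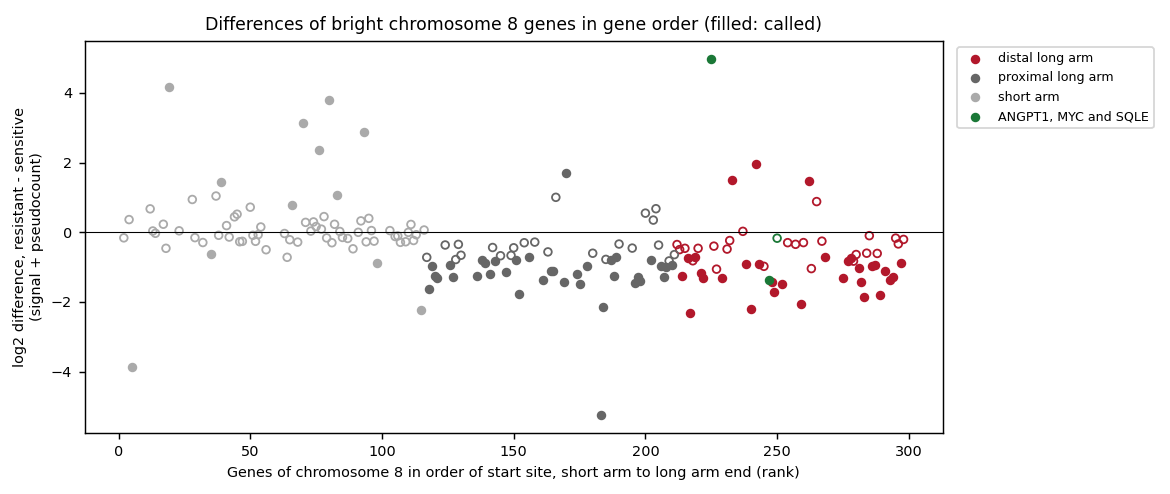
Log2 differences (resistant minus sensitive, y axis) of bright genes of chromosome 8 in the order of their start sites, as ranks (x axis). Filled points were called by limma and open points were not. Red points are the distal long arm, dark grey the proximal long arm, light grey the short arm and green the genes left out. Of the red points, 51 of 56 lie below 0.

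Along the stretch, the genes with lower signals were spread from one end to the other. All 16 bright members before EXT1, which is number 21 of the 84 in order of start site, had a difference below 0. So had all 23 bright members after PTP4A3, which is number 51. EXT1 and PTP4A3 are the first and the last bright members with a difference above 0. The direction of these runs therefore follows from the choice of their ends. The block of 21 genes farthest out, from EEF1D to ZNF250, held 19 bright genes, all of them below 0, with 11 called lower and 0 higher and a median of -0.89. In the block of 21 genes from POLR2K to EXT1, 7 were called lower and 1 higher, in that from TNFRSF11B to TG 6 and 1, and in that from SLA to ZC3H3 4 and 1. The medians of their bright genes were -0.70, -0.95 and -0.53. The genes called higher did not lie side by side. Among bright members, ZHX2 stands between SNTB1 and TBC1D31, both of them called lower.

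Around the position threshold of the stretch, the 3 genes just outside it, OSR2, VPS13B and COX6C, differed on the log2 scale by -0.82, -0.94 and -0.64, and the 3 genes just inside it, POLR2K, SPAG1 and ANKRD46, of -0.35, -0.50 and -1.27. The proximal long arm, with 95 genes, had 36 called lower and 1 higher and a median of -0.60. The 116 genes of the short arm had 4 called lower and 8 higher and a median of 0.04. In the bright genes of the 2 parts of the long arm the medians were -0.82 each. The difference between the parts was not tested.

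By array, the median deviation of the bright members from the mean of the sensitive arrays was between -0.88 and -0.65 in the 5 resistant arrays, against -0.20 to 0.13 in the 5 sensitive arrays. No array of a group reached the values of the other group. For bright genes of other chromosomes the medians were 0.02 to 0.09 in resistant and -0.04 to 0.06 in sensitive arrays, which overlap. The median SD within a group was 0.33 in resistant and 0.35 in sensitive arrays for bright members, and 0.31 and 0.32 for all bright genes.

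**Figure D2:**
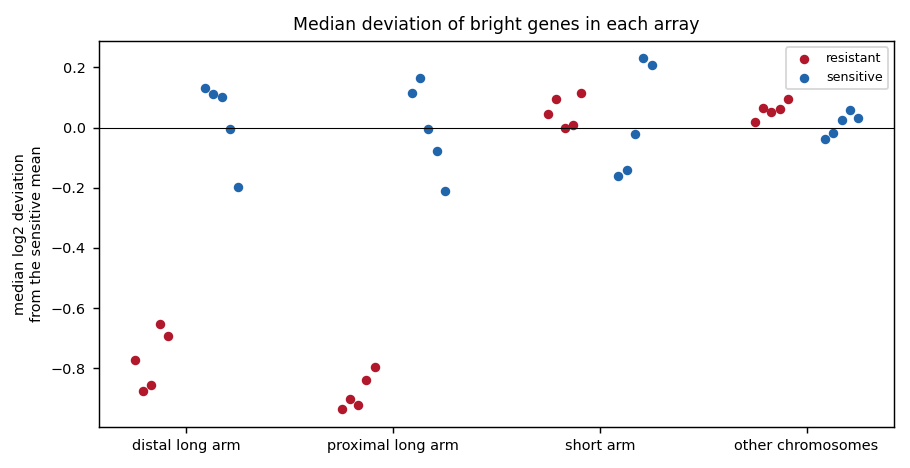
Median log2 deviation of bright genes from the mean of the sensitive arrays (y axis), 1 point per array, for the distal long arm, the proximal long arm, the short arm and all other chromosomes (x axis). Red points are resistant and blue points sensitive arrays. For the distal long arm the resistant arrays lie between -0.88 and -0.65 and the sensitive arrays between -0.20 and 0.13.

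In the group of signalling genes, kinases and phosphatases, 6 of 14 measured genes fell, 1 rose and 7 were not called. NCALD, which encodes the calcium sensor neurocalcin delta, gave signals of 608, 574, 211, 894 and 524 in resistant arrays, against 1789, 2063, 4981, 2956 and 4939 in sensitive arrays. All resistant arrays lay below all sensitive arrays, with means of 562 ± 244 in resistant and 3346 ± 1536 in sensitive arrays (SD, n = 5 each; log2 difference -2.32, SE 0.36, adjusted p = 0.00145, limma). NCALD was above the limit on 3 resistant and 5 sensitive arrays. NDRG1, a gene induced by stress and low oxygen, gave 3169.6, 1405, 1304, 2230.0 and 1713 in resistant arrays, against 14018, 10859, 8867, 4842 and 5669 in sensitive arrays. The groups were again apart, and the sensitive arrays spread widely (log2 difference -2.07, SE 0.33, adjusted p = 0.00175, limma). EFR3A, which anchors a phosphatidylinositol kinase at the plasma membrane, gave 2848, 2765, 2444, 2873 and 3071 in resistant arrays, against 9147, 9257, 7329.9, 8266 and 6446 in sensitive arrays. Its resistant signals lay close together, far below the lowest sensitive one (log2 difference -1.48, SE 0.17, adjusted p = 0.000135, limma).

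TRIB1, a pseudokinase known for directing the degradation of the myeloid factor C/EBP alpha, gave 525, 885, 174, 295 and 996 in resistant arrays, against 1599, 1663, 4633, 898 and 2047 in sensitive arrays. The highest resistant signal exceeded the lowest sensitive one (log2 difference -1.71, SE 0.45, adjusted p = 0.0382, limma). TRIB1 was above the limit on 3 resistant and 5 sensitive arrays. The call was lost when any 1 of resistant replicates 1, 3 and 4 and sensitive replicates 1, 2, 3 and 5 was left out (adjusted p between 0.0691 and 0.0888, limma). FZD6, a receptor of Wnt ligands, had means of 4693 ± 562 in resistant and 12297 ± 3612 in sensitive arrays (SD, n = 5 each; log2 difference -1.32, SE 0.23, adjusted p = 0.00308, limma). YWHAZ, which encodes 14-3-3 zeta, a protein that binds phosphorylated partners, had 32863 ± 5057 in resistant and 54579 ± 5327 in sensitive arrays in its brightest probe set (log2 difference -0.74, SE 0.18, adjusted p = 0.0232, limma), with no overlap. Its call was lost when any 1 of resistant replicates 1 and 2 and sensitive replicates 1, 2 and 5 was left out (adjusted p between 0.0509 and 0.0586, limma). Another YWHAZ probe set was also called, at a log2 difference of -1.03 (adjusted p = 0.012, limma), and the third, at 507 ± 105 in resistant and 571 ± 44.0 in sensitive arrays, was not.

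PTK2, a tyrosine kinase that acts at integrin contacts, moved in the other direction. Its signals were 3659, 3042, 3037, 2915 and 3063 in resistant arrays, against 427, 1122, 815, 1657 and 1863 in sensitive arrays. All resistant arrays lay above all sensitive arrays (log2 difference 1.47, SE 0.32, adjusted p = 0.0126, limma). Its other probe set was not called, at 1084 ± 158 in resistant and 742 ± 252 in sensitive arrays (log2 difference 0.52, adjusted p = 0.205, limma). Of the bright genes of this group that were not called, DENND3, a Rab exchange factor, had a log2 difference of -1.04 (adjusted p = 0.0717, limma), with -0.78 and -0.59 in its other 2 probe sets. SLA, an adaptor that dampens receptor signalling, had a log2 difference of -0.35 with 1392 ± 536 in resistant and 1981 ± 1152 in sensitive arrays (adjusted p = 0.779, limma), and this was between -0.72 and -0.09 without 1 array. Its other probe set had a log2 difference of -0.77 and was not called (adjusted p = 0.113, limma). The phosphatase gene PTP4A3 differed on the log2 scale by 0.88 and 0.80 in its 2 probe sets, neither of them called (adjusted p = 0.251 and 0.229, limma).

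In the group of cytoskeleton, polarity and membrane traffic, 4 of 9 measured genes fell and 0 rose, and all 7 bright members had a difference below 0. SNTB1, a syntrophin that links membrane proteins to the actin skeleton, gave 235, 65.9, 126, 77.5 and 300.1 in resistant arrays, against 869, 987, 1192, 1145 and 1283 in sensitive arrays. No resistant array exceeded its limit and all sensitive arrays did, so that the signal was at least 2.05-fold lower in resistant arrays (log2 difference -2.20, SE 0.25, adjusted p = 0.000141, limma). Its other probe set was dim in both groups. WASHC5, a subunit of the WASH complex that forms actin on endosomes, gave 1232, 1246, 823, 749.9 and 735 in resistant arrays, against 3351, 3962, 2107, 3149 and 1552 in sensitive arrays. The groups did not overlap (log2 difference -1.42, SE 0.27, adjusted p = 0.00628, limma).

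PLEC, the crosslinker plectin, gave 320.2, 227, 1895, 256 and 220.1 in resistant arrays, against 818, 1759, 3894, 1483 and 2064 in sensitive arrays. Resistant replicate 3 lay above 3 of the 5 sensitive arrays, while the other 4 resistant arrays were below all of them (log2 difference -1.87, SE 0.51, adjusted p = 0.0473, limma). The call was lost when any 1 of resistant replicates 1, 2, 4 and 5 and sensitive replicates 2, 3, 4 and 5 was left out (adjusted p between 0.0746 and 0.115, limma). SCRIB, a scaffold of cell polarity, had means of 2020.2 ± 765 in resistant and 4092 ± 801 in sensitive arrays (SD, n = 5 each; log2 difference -1.04, SE 0.27, adjusted p = 0.0337, limma), with no overlap. Its call was lost when any 1 of resistant replicates 1, 2, 4 and 5 and sensitive replicates 1, 2, 3, 4 and 5 was left out (adjusted p between 0.0502 and 0.0749, limma). SPAG1, ODF1 and ARC were bright and not called, at a log2 difference of -0.50, -0.82 and -0.26 (adjusted p = 0.345, 0.277 and 0.82, limma). ODF1 is known from sperm tails and was above the limit on 1 resistant and 4 sensitive arrays.

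**Figure D3:**
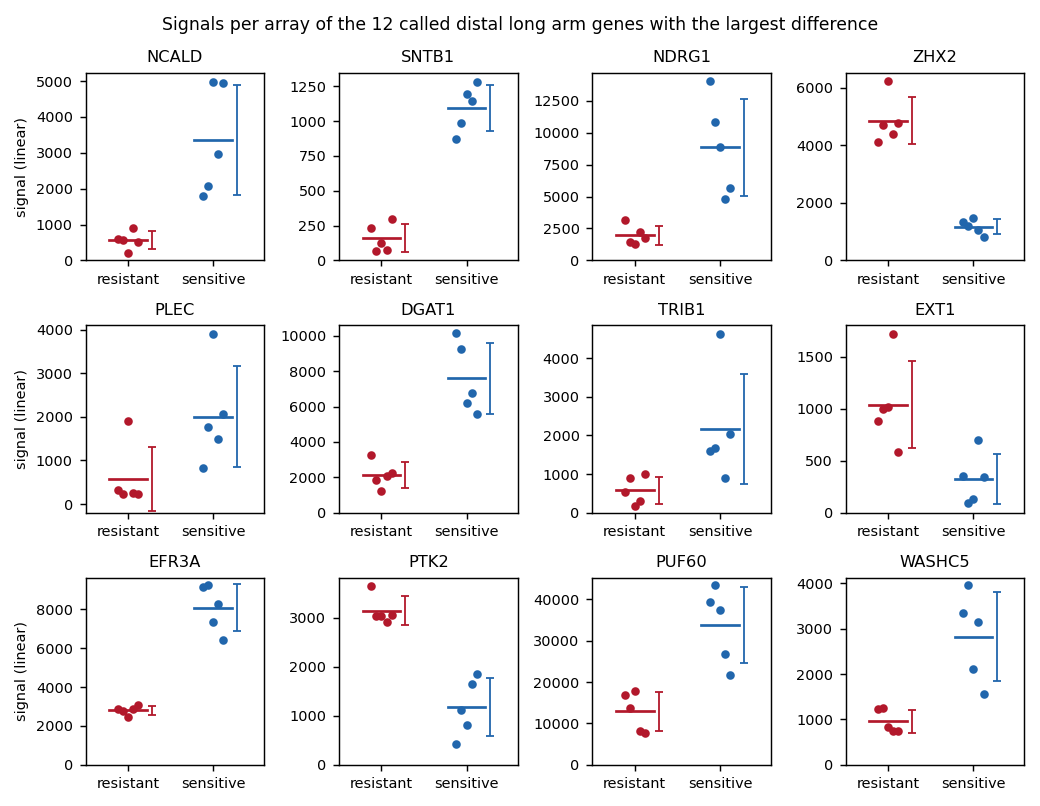
Signals (linear scale, y axes) of the 12 called distal long arm genes with the largest absolute log2 difference in each resistant (red, left) and sensitive (blue, right) array. Horizontal lines are group means and the bars beside them SD, n = 5 each. The 9 genes lower in resistant arrays include PLEC and TRIB1, whose groups overlap. ZHX2, EXT1 and PTK2 are higher, EXT1 with overlap.

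In mitochondria and metabolism, 4 of 11 measured genes fell and 0 rose, and all 8 bright members had a difference below 0. DGAT1, which catalyses the last step of triglyceride synthesis, gave 3270.0, 1818, 1233, 2064 and 2267 in resistant arrays, against 10147, 9263, 6201, 6747 and 5601 in sensitive arrays. Every resistant array was below every sensitive one (log2 difference -1.80, SE 0.26, adjusted p = 0.001, limma). CYC1, the cytochrome c1 subunit of complex III of the respiratory chain, had 41061 ± 3912 in resistant and 79072 ± 7994 in sensitive arrays (SD, n = 5 each; log2 difference -0.94, SE 0.16, adjusted p = 0.00286, limma), and its other probe set was called as well, at a log2 difference of -1.10. ATP6V1C1, a subunit of the proton pump of lysosomes, had 1912 ± 467 in resistant and 4402 ± 858 in sensitive arrays (log2 difference -1.17, SE 0.21, adjusted p = 0.0047, limma). GPT, alanine aminotransferase, had 308 ± 126 in resistant and 934 ± 168 in sensitive arrays (log2 difference -1.37, SE 0.26, adjusted p = 0.00665, limma), with 1 resistant and 5 sensitive arrays above the limit.

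The other bright genes of metabolism were not called. GFUS, which makes GDP-fucose, came closest, at 6478 ± 1634 in resistant and 11575 ± 3024 in sensitive arrays with no overlap (log2 difference -0.83, SE 0.24, adjusted p = 0.0576, limma). AZIN1, an inhibitor of the protein that restrains polyamine synthesis, had a log2 difference of -0.46 in its brightest probe set (adjusted p = 0.227, limma), whereas another of its 3 probe sets was called, at 6499 ± 785 in resistant and 13015 ± 3662 in sensitive arrays (log2 difference -0.95, adjusted p = 0.022, limma). ST3GAL1, a sialyltransferase, differed on the log2 scale by -0.30, -0.58 and 0.60 in its 3 probe sets. None was called, and they disagreed in sign. OPLAH, which returns oxoproline to glutamate, had a log2 difference of -0.10 (adjusted p = 0.916, limma).

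In the machinery of translation, all 5 measured genes had a difference below 0, and 1 of them was called. EEF1D, a subunit of the exchange factor of elongation factor 1, had 37529 ± 2742 in resistant and 62275 ± 6773 in sensitive arrays (SD, n = 5 each; log2 difference -0.72, SE 0.16, adjusted p = 0.014, limma), with no overlap. The EEF1D call was lost when the replicate number was added to the fit as a block (adjusted p = 0.0593, limma). The remaining 4 were not called, with differences between -0.48 and -0.34. RPL8, a protein of the large ribosomal subunit, had 200290.1 ± 19578 in resistant and 253067 ± 28772 in sensitive arrays (log2 difference -0.34, SE 0.16, adjusted p = 0.312, limma), and its groups did not overlap. PABPC1, which binds the poly(A) tail, had a log2 difference of -0.46 (adjusted p = 0.199, limma). EIF3E and EIF3H, subunits of the initiation factor eIF3, differed on the log2 scale by -0.40, SE 0.18 and -0.48, SE 0.21 (adjusted p = 0.258 and 0.244, limma).

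Of 4 genes of the transcription machinery and RNA processing, 2 fell. PUF60, a splicing factor that binds uridine-rich RNA, gave 16906, 13701, 17918, 8233 and 7688 in resistant arrays, against 39325, 43469.8, 37496, 26767 and 21589.9 in sensitive arrays. The groups did not overlap, although both spread widely (log2 difference -1.42, SE 0.30, adjusted p = 0.011, limma). TAF2, a subunit of the general factor TFIID, had 3252 ± 786 in resistant and 6186 ± 745 in sensitive arrays (SD, n = 5 each; log2 difference -0.92, SE 0.19, adjusted p = 0.011, limma). POLR2K, a small subunit shared by the RNA polymerases, was near background at 800.4 ± 271 in resistant and 1037 ± 277 in sensitive arrays and was not called (adjusted p = 0.556, limma). The RNA-binding protein gene KHDRBS3 was dim, at 317 ± 123 in resistant and 124 ± 100.2 in sensitive arrays (log2 difference 0.90, SE 0.30, adjusted p = 0.108, limma). It was called higher without sensitive replicate 4 (log2 difference 1.10, adjusted p = 0.0369, limma).

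Transcription factors and zinc finger proteins held both directions, with 3 of 8 measured genes lower and 1 higher. ZHX2, a repressor with zinc fingers and homeodomains, gave 4119.8, 4707, 6229, 4400.2 and 4754 in resistant arrays, against 1324, 1191, 1484, 1045 and 825 in sensitive arrays. Its lowest resistant signal was well above its highest sensitive one, and the resistant mean was 4.12 times the sensitive mean (log2 difference 1.95, SE 0.20, adjusted p = 5.33e-05, limma). ZNF7, a zinc finger protein, had 2998 ± 236 in resistant and 5707 ± 1138 in sensitive arrays (SD, n = 5 each; log2 difference -0.89, SE 0.18, adjusted p = 0.00881, limma). ZC3H3, a zinc finger protein of messenger RNA export, had 1896 ± 197 in resistant and 3466 ± 608 in sensitive arrays (log2 difference -0.82, SE 0.17, adjusted p = 0.012, limma). The ZC3H3 call was lost when the replicate number was added to the fit as a block (adjusted p = 0.0546, limma).

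KLF10, a zinc finger factor induced by TGF-beta, had 1795 ± 293 in resistant and 2985 ± 490.4 in sensitive arrays (log2 difference -0.70, SE 0.19, adjusted p = 0.0411, limma) and no overlap. Its call was lost when any 1 of resistant replicates 1, 2, 3, 4 and 5 and sensitive replicates 1, 2, 3 and 4 was left out (adjusted p between 0.0528 and 0.0995, limma), and its other probe set had a log2 difference of -0.28 and was not called. HSF1, the main factor of the heat shock response, differed on the log2 scale by -0.61 and -0.60 in its 2 probe sets, the brighter of them without overlap between the groups (adjusted p = 0.0763 and 0.129, limma). ZNF623 and ZNF250 differed on the log2 scale by -0.64 and -0.21 (adjusted p = 0.224 and 0.727, limma). The other ZNF623 probe set was dim, with a log2 difference of 0.07. FOXH1, a partner of SMAD proteins, was dim on all arrays.

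Of 3 measured genes of DNA replication and repair, RECQL4, a helicase that acts in replication and repair, fell, with 1493 ± 307 in resistant and 3894 ± 1278 in sensitive arrays (SD, n = 5 each; log2 difference -1.29, SE 0.24, adjusted p = 0.00564, limma). Its neighbours in role did not pass the test. RAD21, a subunit of the cohesin ring, was bright at 39645 ± 5636 in resistant and 47103 ± 8953 in sensitive arrays (log2 difference -0.24, SE 0.19, adjusted p = 0.6, limma), and TONSL, which acts at damaged replication forks, was dim. In the group of ubiquitin ligases and protein quality control, the 3 measured genes had differences between -1.06 and -0.97. GPAA1, a subunit of the enzyme that attaches GPI anchors, is listed here beside the ligases. It had 10493 ± 765 in resistant and 20683 ± 2149 in sensitive arrays (SD, n = 5 each; log2 difference -0.97, SE 0.16, adjusted p = 0.00213, limma). EMC2, a subunit of a membrane protein insertase of the endoplasmic reticulum, had a log2 difference of -1.06, SE 0.33, and RNF139, a ubiquitin ligase of the same membrane, had a log2 difference of -0.98, SE 0.32. Neither was called (adjusted p = 0.085 and 0.101, limma). RNF139 was called without sensitive replicate 5 (log2 difference -1.19, adjusted p = 0.0358, limma).

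Most genes of matrix, secreted and surface proteins were dim, with 4 of 17 bright. EXT1, which builds the chains of heparan sulphate, gave 879, 993, 1021, 1721 and 583 in resistant arrays, against 349, 89.6, 133, 704 and 344 in sensitive arrays. It was above the limit on 4 resistant and 1 sensitive arrays, and the lowest resistant signal lay below the highest sensitive one (log2 difference 1.50, SE 0.38, adjusted p = 0.0297, limma). The call was lost when any 1 of resistant replicates 1, 2, 3 and 4 and sensitive replicates 1, 2 and 3 was left out (adjusted p between 0.0509 and 0.0713, limma). Another EXT1 probe set was also called higher, at 926 ± 193 in resistant and 268 ± 199 in sensitive arrays (adjusted p = 0.0132, limma). It was above the limit on 5 resistant and 0 sensitive arrays, so that it was higher by at least 1.88-fold. The remaining EXT1 probe set was dim. Lower were LY6E, an interferon-induced surface protein, at 1800.4 ± 550.4 in resistant and 4587 ± 888 in sensitive arrays (SD, n = 5 each; log2 difference -1.32, SE 0.23, adjusted p = 0.00292, limma), and EBAG9, an antigen that also restrains secretion, at 2057 ± 376 in resistant and 5319.7 ± 1163 in sensitive arrays (log2 difference -1.31, SE 0.21, adjusted p = 0.00217, limma). ENPP2, which encodes the lysophospholipase D autotaxin, had 1009.9 ± 639 in resistant and 971 ± 528 in sensitive arrays and was not called (log2 difference 0.03, SE 0.37, adjusted p = 0.987, limma). Its other probe sets were above the limit on no array, with log2 differences of 0.10 and -0.42.

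Ion channel genes gave 0 calls by limma among 3 measured, with 1 at an unadjusted p under 0.05. This was GRINA, a membrane protein listed here beside the channels, at a log2 difference of -0.60 in its brightest probe set and 0.77 in the other (adjusted p = 0.246 and 0.368, limma). KCNQ3, a potassium channel subunit, had a log2 difference of -0.30, SE 0.44 (adjusted p = 0.812, limma), and KCNV1 was dim. Of 7 members outside these roles 4 fell. ANKRD46, an ankyrin repeat protein, had 3749 ± 1003 in resistant and 9273 ± 2945 in sensitive arrays (SD, n = 5 each; log2 difference -1.26, SE 0.26, adjusted p = 0.00916, limma). ZFTRAF1, a zinc finger protein, had 663 ± 88.8 in resistant and 1588 ± 330.2 in sensitive arrays (log2 difference -1.12, SE 0.19, adjusted p = 0.00242, limma), and its other probe set, at a log2 difference of -1.10, was not called. JRK differed on the log2 scale by -0.71 and -0.62 in its 2 probe sets, both called (adjusted p = 0.0403 and 0.0452, limma). The call of its brighter probe set was lost when any 1 of resistant replicates 1, 3, 4 and 5 and sensitive replicates 1, 2, 4 and 5 was left out (adjusted p between 0.0547 and 0.1, limma). TBC1D31, which belongs to a family of Rab regulators, had a log2 difference of -0.92, SE 0.24 with overlap (adjusted p = 0.0373, limma), a call lost when any 1 of resistant replicates 1, 2, 3 and 4 and sensitive replicates 1, 2, 3 and 4 was left out (adjusted p between 0.054 and 0.0953, limma). LRRC14, a leucine-rich repeat protein, had a log2 difference of -0.17 and was not called.

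**Figure D4:**
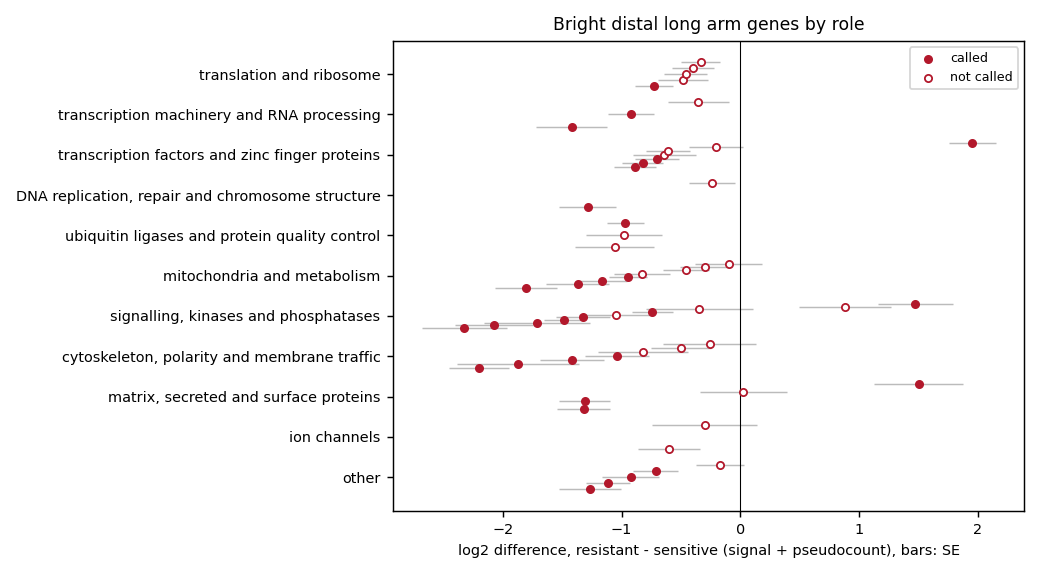
Log2 differences (resistant minus sensitive, x axis) of the 56 bright distal long arm genes by role (rows), with SE as bars. Filled points were called by limma and open points were not. Points above 0 are ZHX2, EXT1, PTK2, PTP4A3 and ENPP2, the last of which was below 0 with arrays scaled to a common median or quantile normalized.

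The 28 members that were not bright were RIMS2, DPYS, TRHR, KCNV1, TNFRSF11B, COLEC10, CCN3, COL14A1, HAS2, ANXA13, MTSS1, ADCY8, HHLA1, DNAAF11, TG, CCN4, KHDRBS3, GPR20, ADGRB1, PSCA, SLURP1, LY6D, GML, CYP11B1, CYP11B2, LY6H, TONSL and FOXH1. Many of them are known from thyroid (TG), adrenal (CYP11B1 and CYP11B2), nerve (ADCY8 and RIMS2), epithelial (LY6D and PSCA) or connective tissue (COL14A1 and HAS2). Of the 28, 18 were above the limit on no array and 10 on at least 1. By limma 0 were called, and 1, KHDRBS3, had an unadjusted p under 0.05. Their differences ranged from -0.53 to 0.90. Of all 2930 genes that were not bright, 15 were called lower and 37 higher. Where a gene was above the limit on no array, its signals could not be told from background, which does not show that the groups were alike.

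Of the 84 genes, 24 had more than 1 probe set. In 10 of these at least 1 probe set was called, in 2 (JRK and CYC1) all were, and in 0 were probe sets called in opposite directions. Counted by probe set, 32 of 114 were called lower and 4 higher, against 2.99% and 4.42% of all 12558 probe sets. The 3 genes of the stretch that were left out differed from one another. SQLE, an enzyme of cholesterol synthesis, was called lower (log2 difference -1.38, SE 0.24, adjusted p = 0.00381, limma). MYC was called in none of its probe sets (log2 difference -0.17, SE 0.18, adjusted p = 0.717, limma, in the brightest). Its other probe sets had log2 differences of 0.06, -0.45 and -0.30. ANGPT1, which encodes angiopoietin 1, was higher by at least 21.3-fold (log2 difference 4.98, SE 0.32, adjusted p = 1.36e-06, limma). Its other probe set was also called higher, by at least 17.3-fold.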

How the data were processed

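The authors' deposited values are intensities on a linear scale, 1 signal per probe set and array; the submitters' processing notes name MAS5, and neither its version nor its settings were given in the sources used here. The 2% trimmed means lay between 2501.33 and 2501.51, so the deposited signals were already at a common level. Control probe sets (67 of 12625) were left out. Symbols were brought up to date through Entrez identifiers with a gene table of GRCh38.p14, which served for names, chromosome, the position rule and gene order. Of the probe sets, 10943 had 1 symbol, 545 several and 1070 none, and 10934 matched the table. Another 2 probe sets name both CYP11B1 and CYP11B2 and were not used. Chromosome 8 was divided into arms at a start position set by hand near the centromere, which is not in the table.

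Arrays were scaled to the mean trimmed mean, and log2(signal + 114.8), the pseudocount being the 20th percentile of signals, was fitted with lmFit and eBayes (limma 3.58.1, R 4.3.3) without covariates, and tested on simulated data. "At least" folds set the brighter group's mean log2 signal against the dimmer group's, raised on each array to the limit. Signals are given per array for the 12 called members with the largest absolute difference and any called against the majority. Members and lists were chosen with earlier results of these data known. Alternatives covered scaling, pseudocount, dim probe sets, replicate block, variance model, left-out arrays and mean of probe sets. The number of arrays limits the precision.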

Additional observations from a re-analysis of the deposited data

Results flagged for a closer look

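Within each group of 5 arrays, 1 array stood apart from the rest (gap to the nearest array over the range of the group above 0.71, on the log2 scale) in 7 of 112 groups tested over the 56 bright members, and chance gives about 1 in 20. Resistant replicate 1 was low for YWHAZ (24172, against 32776 to 36552 in the other resistant arrays) and for ARC (209.9, against 825 to 1151), and high for PTK2 (3659, against 2915 to 3063). Resistant replicate 3 was high for PLEC (1895, against 220.1 to 320.2) and low for GPT (89.4, against 322 to 413). Resistant replicate 5 was high for ENPP2 (2135, against 564 to 836). Sensitive replicate 5 was low for EBAG9 (3377, against 5301 to 6295).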

How the results depend on the processing

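Of the 28 genes called lower, 19 were called under all 19 alternatives, and so were ZHX2 and PTK2 of the 3 called higher. Of the bright members not called, 7 were called lower under at least 1 alternative, GFUS under 5, EMC2, DENND3 and HSF1 under 4 each, RNF139 under 2 and PABPC1 and RPL8 under 1 each. The dim gene KHDRBS3 was called higher without sensitive replicate 4 (adjusted p = 0.0369, limma). The number of members called lower was 35 with trend and robust eBayes, 32 with bright probe sets only or the higher pseudocount (398.7), 26 with the lower one (51.6), 29 with quantile normalization, 27 with a common median, 28 without chromosome 8 in the scaling and 28 with the mean of probe sets. Without 1 array it was between 21 and 24, and 2 to 4 were called higher. With the replicate number as a block, 23 were called lower and 3 higher. Calls were lost for YWHAZ, KLF10, TBC1D31, TRIB1, JRK, ZC3H3 and EEF1D (adjusted p between 0.0546 and 0.0963, limma). The 23 include members that were not called in the main fit. Deviations of same-numbered arrays correlated at 0.036 to 0.229. Resistant replicates 2, 3 and 4 and sensitive replicates 1, 3 and 5 correlated best with their own number, and the other arrays did not. The labels do not state that same-numbered arrays belong together, and the main fit did not pair them. Whether they share a batch was not tested. The median difference of bright members was -0.94 with arrays scaled to a common median, which moved the median of all probe sets to -0.07, against 0.03, and -0.90 to -0.77 without 1 array. KLF10 lost its call with the mean of probe sets (adjusted p = 0.142, limma), as did PLEC (0.0964), JRK with the common median (0.0508), and TRIB1 and PLEC with the lower pseudocount (0.0537 and 0.0602). The differences of 5 uncalled genes changed sign. ENPP2, at 0.03, was -0.10 with the mean of probe sets, -0.092 with the common median, -0.080 with quantile normalization and between -0.26 and 0.27 without 1 array. OPLAH, at -0.10, was 0.024 with the mean of probe sets and -0.32 to 0.058 without 1 array, GRINA, at -0.60, was 0.086 with the mean of probe sets, and ARC, at -0.26, and KCNQ3, at -0.30, were -0.48 to 0.10 and -0.64 to 0.0050 without 1 array. The causes were not tested.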

Other observations

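Among sensitive arrays, the median deviation of the bright distal long arm genes was 0.13, 0.11 and 0.10 in replicates 1, 2 and 3, and -0.0040 and -0.20 in replicates 4 and 5. For bright genes of the short arm it was -0.16, -0.14 and -0.02 in replicates 1, 2 and 3, and 0.23 and 0.21 in replicates 4 and 5.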
